A study of Mus musculus with 12 samples.

Results

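The cytosolic heat shock genes described here are 10 genes of 78334 gene IDs in a mouse hypothalamus RNA-seq count table: Hspa1a, Hspa1b, Hspa8, Hsph1, Dnajb1, Hsp90aa1, Hsp90ab1, Hspb1, Hspa4l and Hsf1. They were taken by name, through the Ensembl gene ID that pairs with each symbol, and each symbol matched 1 ID. The rule is a list of names, drawn up with earlier results of these data known. The study asked which hypothalamic transcripts change in diet-induced obesity and with resveratrol. Whole hypothalami of male C57BL/6 mice, 8 weeks old at the start, gave 12 libraries. The control group (C, n = 3) received a standard diet, and the mice of the other 9 libraries a high-fat diet (HFD) with 60% of its kcal from fat for 8 weeks. Daily gavage ran for 28 days in every group, from 16 weeks of age by one description. C and the obese group (Ob, n = 3) received saline vehicle. Ob + RSV (n = 3) received resveratrol at 2.25 mg/kg, Ob + EAE (n = 2) aged garlic extract at 200 mg/kg, and Ob + CUR (n = 1) curcumin at 50 mg/kg. The sources used here differ on whether gavage fell inside the 8 weeks of diet or after them. No label says that any 2 libraries of a group came from 1 animal, nor which animal each came from, so the p-values below measure the spread between these libraries.

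Heat shock proteins are chaperones: they bind unfolded or newly made proteins, keep them from clumping and hand them on for folding or degradation. In the cytosol the HSP70 proteins (Hspa genes) work in cycles of ATP hydrolysis that DNAJ proteins start and that HSP110 proteins reset, and HSP90 proteins finish the folding of kinases and steroid receptors. The transcription factor HSF1 is held inactive by these chaperones and drives their genes when unfolded proteins accumulate. Some members are made constantly at high levels in neurons and others, such as Hspa1a and Hspa1b, are low at rest and rise steeply with heat, injury or toxic stress.

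HSF1 binds repeats of a short unit, and the letters GAANNTTC and TTCNNGAA each hold an inverted pair of it. Each pattern reads the same on both strands, and the 2 overlap where a further unit follows. RefSeq's promoter table (GRCm38.p6) held 6 of the 10 members. Hspa8, Hsp90aa1, Hsp90ab1 and Hsf1 had no entry. The 250 bases before the start are shown for Hspa1a, Hspa1b, Hsph1 and Hspb1 because they hold the motif. Hspa4l is shown because it is the member with the smallest p when Ob was set against C. Capitals mark a match to either pattern, and each sequence runs 5′ to 3′ on the gene's strand. Hspa1a lies at chr17:34972157-34972406 (minus strand), Hspa1b at chr17:34959239-34959488 (minus), Hsph1 at chr5:149636337-149636586 (minus), Hspb1 at chr5:135887669-135887918 (plus) and Hspa4l at chr3:40745363-40745612 (plus).
Hspa1a: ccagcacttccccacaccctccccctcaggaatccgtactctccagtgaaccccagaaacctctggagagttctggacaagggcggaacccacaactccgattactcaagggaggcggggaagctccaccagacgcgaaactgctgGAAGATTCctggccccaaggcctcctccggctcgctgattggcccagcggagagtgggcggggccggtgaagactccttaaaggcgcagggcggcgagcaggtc
Hspa1b: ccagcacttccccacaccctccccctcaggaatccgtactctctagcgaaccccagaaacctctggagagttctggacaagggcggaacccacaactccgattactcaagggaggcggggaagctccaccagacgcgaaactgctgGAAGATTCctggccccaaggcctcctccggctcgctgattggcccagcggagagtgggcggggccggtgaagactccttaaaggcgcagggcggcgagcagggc
Hsph1: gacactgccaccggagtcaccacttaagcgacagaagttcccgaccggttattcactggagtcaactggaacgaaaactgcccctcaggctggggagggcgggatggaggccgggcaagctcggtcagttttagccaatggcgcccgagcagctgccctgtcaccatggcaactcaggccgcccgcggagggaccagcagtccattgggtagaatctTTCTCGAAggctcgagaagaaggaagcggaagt
Hspb1: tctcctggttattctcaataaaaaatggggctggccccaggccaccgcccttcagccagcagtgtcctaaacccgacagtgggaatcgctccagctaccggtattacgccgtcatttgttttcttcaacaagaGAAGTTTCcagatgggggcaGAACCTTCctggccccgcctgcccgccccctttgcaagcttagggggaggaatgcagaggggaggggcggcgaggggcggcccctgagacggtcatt
Hspa4l: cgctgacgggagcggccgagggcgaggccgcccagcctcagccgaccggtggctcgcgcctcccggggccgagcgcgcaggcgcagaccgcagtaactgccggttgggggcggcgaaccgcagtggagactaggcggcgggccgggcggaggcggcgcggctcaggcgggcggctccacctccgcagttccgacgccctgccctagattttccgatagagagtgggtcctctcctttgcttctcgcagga

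Either pattern was found before the start of 4 of the 6 members: Hspa1a, Hspa1b, Hsph1 and Hspb1, the last with 2 matches. It was not in the windows of Dnajb1 or Hspa4l. Of all 32851 promoter entries, 12.84% hold one of the patterns in the same 250 bases. The match starts 104 bases before the start of Hspa1a and of Hspa1b, and those of Hspb1 start 117 and 97 bases before. Hsph1 has 2 entries, and its match starts 33 bases before the start of the one shown and 54 before the other. Either pattern extended by NN and a further unit in alternating direction, 3 units in all, was in none of the members' windows and in 0.466% of all entries. Hspa1a and Hspa1b differ at 3 of the 250 bases, an identity of 98.8%: C44T, T47C and T249G, with Hspa1a's base first and positions counted from 1 at the 5′ end of the sequences shown.

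Library totals ran from 15655156 to 26284661 counts, and every member was counted in every library. Levels are given as counts-per-million values (CPM), each count scaled by its library's total. Together the 10 members took between 0.303% and 0.365% of a library's counts. C replicate 2, Ob replicate 1 and Ob + RSV replicate 2 had the fewest genes with a read, 24450 to 26123 against 28632 to 38081 in the other 9 libraries, so values that moved by over 1.5 times or changed sign without them are given beside the result or at the end. The summed level of 9 hypothalamic marker genes lay between 967 and 2970 CPM in all groups but Ob + CUR, where it was 238 CPM. The 2 Ob + EAE libraries correlated with each other and with the Ob + CUR library at r = 0.983 to 0.994 of log2 CPM over 13043 genes. Between these 3 and the other 9 r was 0.862 to 0.982 (median 0.938). Among the other 9 it was 0.895 to 0.984 (median 0.953), so the ranges touch. Nothing in the labels names a batch, so a batch and the treatment cannot be told apart for these 3 libraries. In whole tissue, fewer cells of a type and less RNA per cell cannot be told apart.

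Per kilobase of exon, with all annotated exons of a gene merged, the levels of the members spanned more than 100-fold. Hsp90ab1, the constitutive HSP90, was highest at 481 ± 45.5 CPM per kb (mean ± SD, n = 12 libraries of all groups). It stood above every other member in 12 of 12 libraries. Hsp90aa1, the inducible HSP90 isoform, followed at 146 ± 20.6 CPM per kb, and Hspa8, the constitutive cytosolic HSP70, at 133 ± 20.3 CPM per kb. These 2 did not separate, since Hsp90aa1 was higher in 7 of 12 libraries. Hsph1, an HSP110 that exchanges the nucleotide of HSP70, came next at 39.7 ± 2.95 CPM per kb, with no overlap with its neighbours. Dnajb1, the DNAJ protein that activates HSP70, had 19.0 ± 3.19, Hspa4l, a further HSP110, 14.3 ± 3.47, and the transcription factor Hsf1 9.32 ± 1.38 CPM per kb, and the ranges of these neighbours overlapped. Merged exons and longest transcript had 7099 and 3133 bases for Hsf1, 11792 and 9479 for Hspa4l, and 3204 and 2996 for Dnajb1. The order of Dnajb1, Hspa4l and Hsf1 therefore depends on the length used. The inducible pair Hspa1a and Hspa1b had 4.45 ± 1.10 and 4.23 ± 1.36 CPM per kb. Hspb1, the small heat shock protein HSP25, had 3.45 ± 1.24 CPM per kb and overlapped with both. The low level of Hspa1a, Hspa1b and Hspb1 was shared by all 5 groups.

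**Figure D1:**
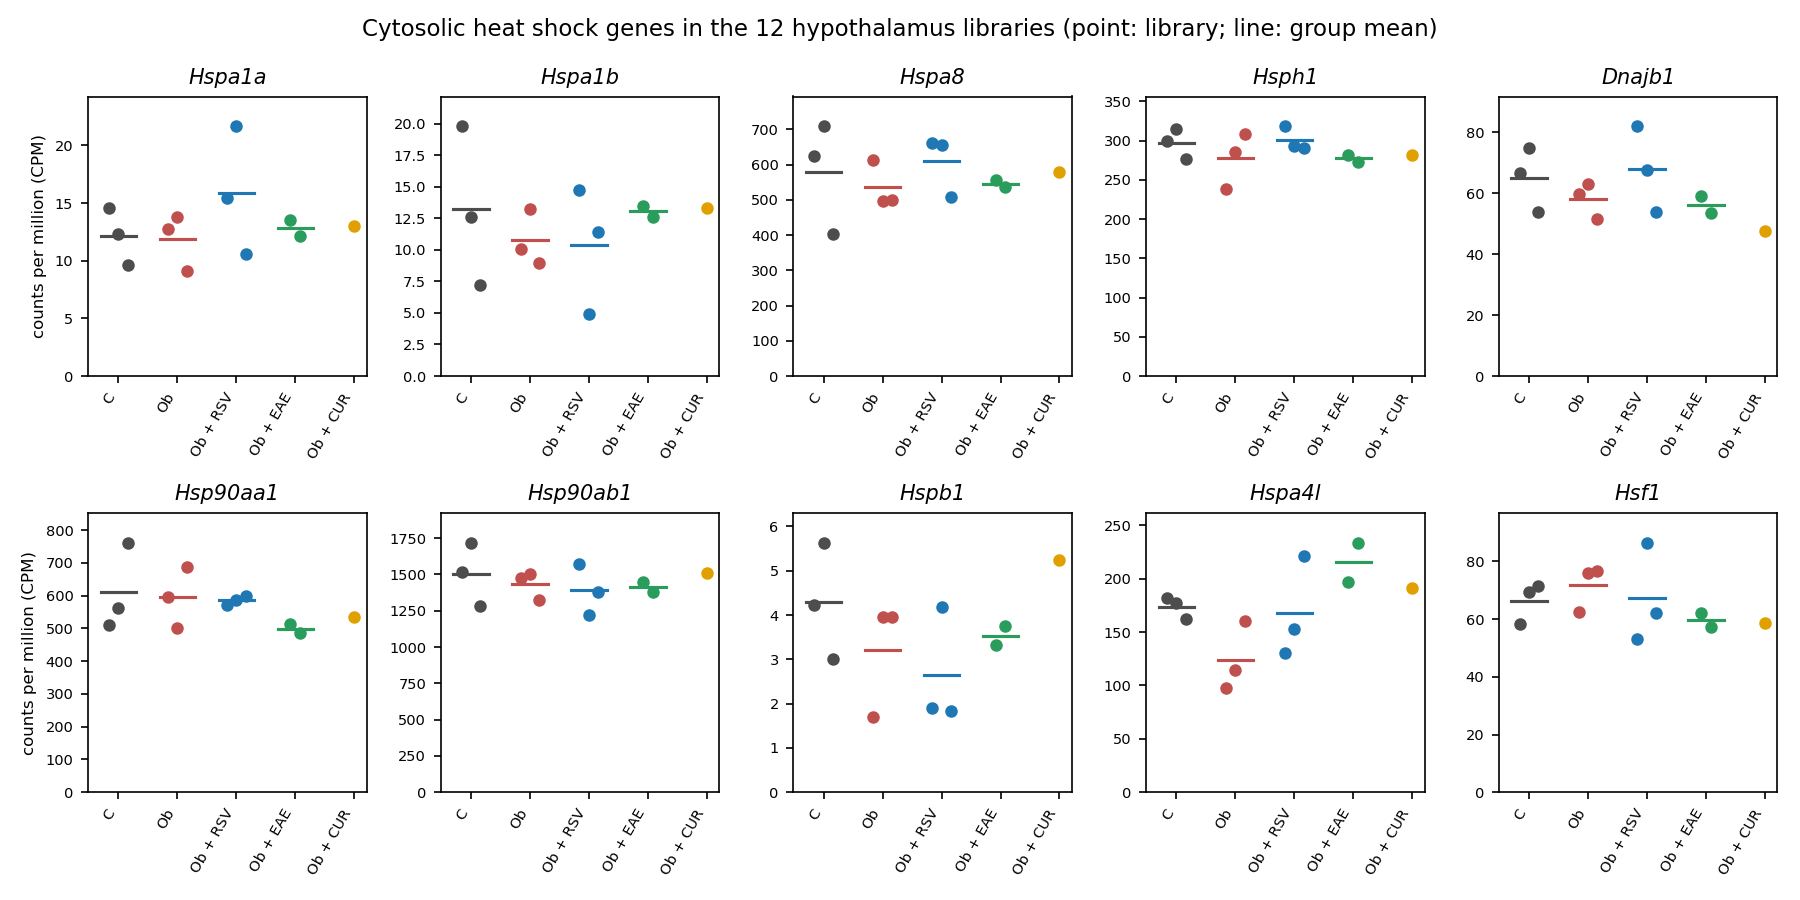
Counts-per-million (y axis, linear from 0) of the 10 cytosolic heat shock genes by group (x axis), with a point for each library and a line at the mean of groups with more than 1 library. The groups overlap for nearly every member, and the Ob libraries of Hspa4l, at 97.7 to 160 CPM, lie below the C libraries at 162 to 182 CPM.

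None of the 10 members differed between C, Ob and Ob + RSV at the threshold of the study's methods, an adjusted p under 0.05 with a log2 fold change (log2FC) of at least 1 either way, in edgeR's quasi-likelihood test. This held for each pair of these groups and for the test of any difference among them, where an adjusted p under 0.05 sufficed. The same tests called 0% of 33534 genes in each of the 3 pairs and 0% in the test of any difference, so the members' count does not set them apart from other genes. DESeq2 called 0 members as well, and 0, 0, 1 and 0 genes of all tested. At an unadjusted p under 0.05, 1 member passed in Ob vs. C, where 2.75% of all genes did. With resveratrol 0 members passed against Ob, where 3.16% of genes did, and 0 against C, where 2.87% did. The test of any difference gave 0 members and 2.77% of genes. The number of members whose groups did not overlap was 1 (Ob vs. C), 0 (Ob + RSV vs. Ob) and 0 (Ob + RSV vs. C), against 7.64%, 6.68% and 5.43% of genes.

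The fits bounded most members. The 95% interval of the log2FC lay wholly between -1 and 1 for 8 of 10 members when Ob was set against C. For Ob + RSV it did so for 9 members against Ob and for 7 against C. In the same order, of all genes tested, many of them with few reads, 32.6%, 33.1% and 34.5% had such an interval, and of the 13043 genes with a mean of at least 5 CPM 83.0%, 84.5% and 88.0%. Hspb1, with 31 to 122 reads in a library, was outside in each comparison. Hspa1b was outside in both comparisons with C, and Hspa1a in that of Ob + RSV with C. The median log2FC over the members was -0.06 for Ob against C and, for Ob + RSV, 0.02 against Ob and -0.01 against C, beside medians of -0.003, 0 and -0.003 over all genes tested.

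**Figure D2:**
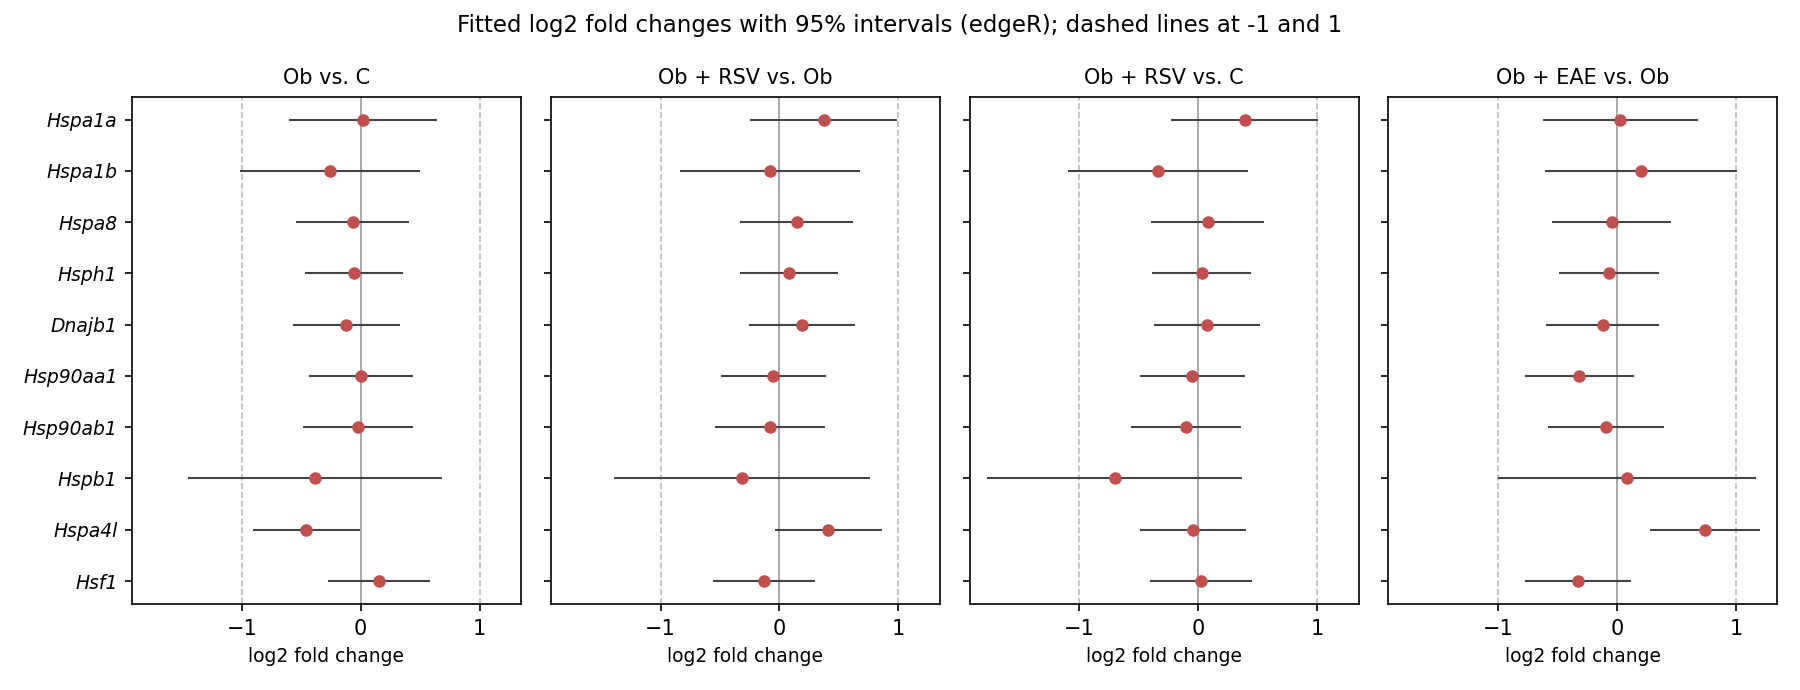
Fitted log2 fold changes (x axis, points) of the 10 members (y axis) with their 95% intervals (bars) in 4 comparisons, from edgeR, with dashed lines at -1 and 1. Points sit near 0 for most members. The interval of Hspa4l leaves 0 out for Ob against C and for Ob + EAE against Ob, and that of Hspb1 is the widest.

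The inducible pair comes first among the HSP70 genes. Hspa1a was counted at 14.5, 12.3 and 9.58 CPM in C replicates 1 to 3, at 12.8, 13.8 and 9.13 CPM in Ob, and at 15.4, 21.6 and 10.6 CPM in Ob + RSV. Hspa1b was at 19.8, 12.6 and 7.19 CPM in C, at 10.1, 13.2 and 8.94 CPM in Ob, and at 14.8, 4.92 and 11.4 CPM in Ob + RSV. The groups overlapped for both genes. The log2FC of Hspa1a was 0.02 ± 0.30 (SE) for Ob against C, and for Ob + RSV it was 0.37 ± 0.30 against Ob and 0.39 ± 0.30 against C. For Hspa1b it was -0.26 ± 0.37 for Ob against C and -0.08 ± 0.37 for Ob + RSV against Ob. The edgeR adjusted p was 1 in each of these. The values of Hspa1a rest on Ob + RSV replicate 2: without it they were 0.13 against Ob and 0.15 against C, and without the 3 libraries with the fewest genes 0.21 and 0.14.

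The 2 genes are near-copies, and their split moved with the library. Of the 150-base stretches of the GENCODE vM21 transcript of Hspa1a, 38.1% occur unchanged in Hspa1b, and 40.5% of those of Hspa1b occur in Hspa1a. A read from these stretches does not by itself tell the 2 genes apart, though the other read of its pair may. In 9 of the 12 libraries the share of Hspa1a in the reads of both lay between 48.1% and 55.9%. It was 42.4% in C replicate 1 and 57.1% in C replicate 3. In Ob + RSV replicate 2 it was 81.5% (95% Wilson interval 78.1% to 84.4%), 471 reads on Hspa1a against 107 on Hspa1b. This library holds both the highest level of Hspa1a and the lowest of Hspa1b in the series, and it is 1 of the 3 with the fewest genes. Intervals of this kind cover counting error only.

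Summed over both genes the level of Ob + RSV replicate 2, 26.6 CPM, was within the range of the other libraries. The sum was 34.3, 24.9 and 16.8 CPM in C, 22.9, 27.0 and 18.1 CPM in Ob and 30.2, 26.6 and 22.0 CPM in Ob + RSV. The spread within C alone, from 16.8 to 34.3 CPM, spanned all libraries. With counts summed before the fit the log2FC was -0.12 ± 0.27 for Ob against C, and for Ob + RSV it was 0.17 ± 0.27 against Ob and 0.05 ± 0.27 against C, each with an adjusted p of 1. Against Hspa8, the constitutive gene, the 2 inducible genes had 3.52 to 5.49 reads for each 100 reads of Hspa8.

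**Figure D3:**
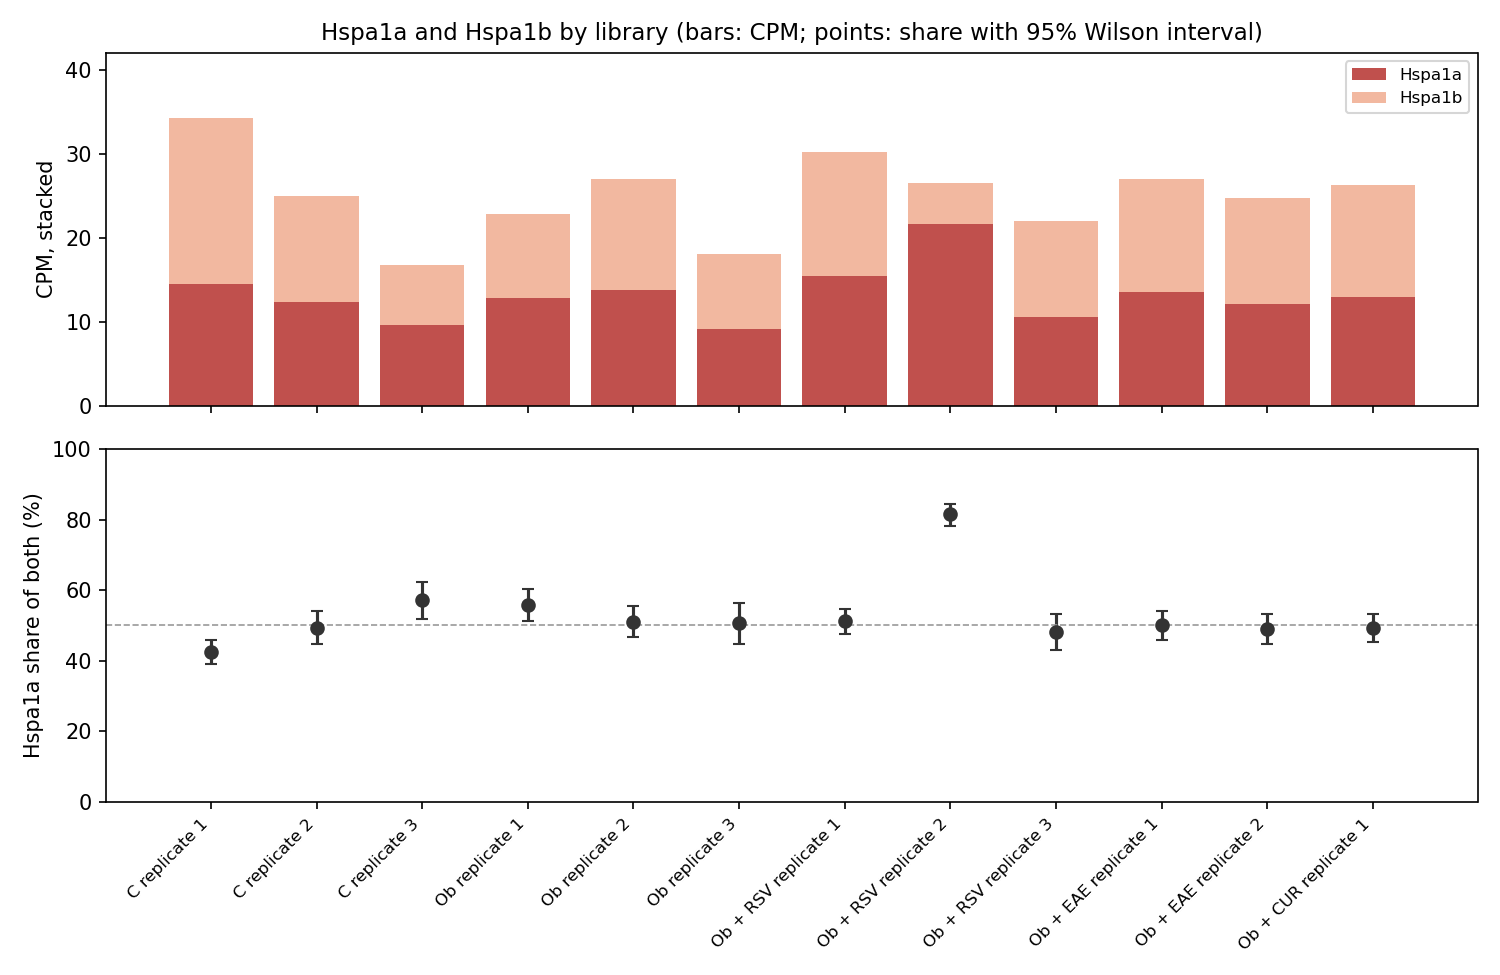
Counts-per-million of Hspa1a and Hspa1b stacked by library (upper y axis, linear from 0) and the share of Hspa1a in the reads of both with its 95% Wilson interval (lower y axis, percent). Ob + RSV replicate 2 stands apart in the share, at 81.5%, and not in the sum, at 26.6 CPM.

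Hspa8, the constitutive HSP70 that carries most cytosolic HSP70 work in resting cells, was at 625, 708 and 402 CPM in C, at 613, 496 and 499 CPM in Ob, and at 661, 657 and 509.5 CPM in Ob + RSV. C held both the highest and the lowest library. Its log2FC was -0.07 ± 0.23 for Ob against C and 0.15 ± 0.23 for Ob + RSV against Ob. Dnajb1, its activating partner, was at 66.5, 74.9 and 53.9 CPM in C, at 59.6, 62.9 and 51.4 CPM in Ob and at 81.9, 67.6 and 53.8 CPM in Ob + RSV, and the groups overlapped. The log2FC of Dnajb1 was -0.12 ± 0.22 for Ob against C and 0.19 ± 0.22 for Ob + RSV against Ob. Without the 3 libraries the values for Ob + RSV against Ob were 0.27 for Hspa8 and 0.28 for Dnajb1, and Dnajb1 had -0.067 for Ob against C.

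The HSP110 gene Hsph1 was the steadiest member. It was at 299, 314 and 276 CPM in C, at 239, 286 and 308 CPM in Ob and at 318, 293 and 290.3 CPM in Ob + RSV. Its coefficient of variation over the 12 libraries was 7.43%, and only 1.06% of the genes with a mean of at least 5 CPM had a smaller SD of log2 CPM. The log2FC was -0.06 ± 0.20 for Ob against C and 0.08 ± 0.20 for Ob + RSV against Ob.

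Hspa4l, the second HSP110 and a protein abundant in testis and brain, was the member with the smallest p for Ob against C and for Ob + RSV against Ob. It was at 182, 177 and 162 CPM in C, at 97.7, 114 and 159.9 CPM in Ob and at 130.4, 153 and 222 CPM in Ob + RSV. All 3 Ob libraries were below all 3 C libraries, by a margin of about 2 CPM at the nearest pair, while Ob + RSV overlapped with both. The log2FC was -0.46 ± 0.22 in Ob vs. C (95% interval -0.91 to -0.01, unadjusted p = 0.0472, adjusted p = 1 in edgeR). In Ob + RSV vs. Ob it was 0.41 ± 0.22 (unadjusted p = 0.0721, adjusted p = 1), and the test of any difference among the 3 groups gave an unadjusted p of 0.0974. These comparisons share the Ob libraries. Without the 3 libraries with the fewest genes the log2FC was -0.34 in Ob vs. C. For Ob + RSV against Ob it was 0.17 without Ob + RSV replicate 3 and 0.59 without Ob replicate 3.

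No label pairs libraries of different groups. A pairing of Ob with Ob + RSV by replicate number was taken from these counts. Deviations from the group means of same-numbered libraries had r = 0.56, 0.11 and 0.62. The 0.11 was below the 0.36 of C replicate 2 with Ob replicate 2, although C was not taken as paired. The pairs are thus not established. Within the pairs Hspa4l was 1.33, 1.33 and 1.39 times as high in Ob + RSV as in Ob. With the replicate number as a block in a fit of these groups alone, its log2FC was 0.40 ± 0.14 (unadjusted p = 0.00546, edgeR adjusted p = 0.308). This fit was added after the data were seen, and it called 0 members and 34 of 30632 genes. Hspa1a, Hspa8 and Dnajb1 were also higher in 3 of 3 pairs, with paired log2FC values of 0.35 ± 0.24, 0.15 ± 0.14 and 0.17 ± 0.15 and adjusted p of 0.931 or more.

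Most markers of the thalamus, which borders the hypothalamus, moved the same way as Hspa4l in Ob vs. C and in Ob + EAE vs. Ob, but not in Ob + RSV vs. C. The summed level of 5 thalamic markers was 324 to 538 CPM in C, 221 to 323 CPM in Ob and 277 to 333 CPM in Ob + RSV. All 5 had a negative log2FC in Ob vs. C, with a median of -0.72, of which 3 had an unadjusted p under 0.05 and 0 were called. In Ob + RSV vs. C all 5 were negative as well, with a median of -0.77, where Hspa4l had a log2FC of -0.05 ± 0.22. Against Ob, 3 of the 5 were positive in Ob + RSV, with a median of 0.13. In Ob + EAE the sums were 382 and 388 CPM, with a median log2FC of 0.59 against Ob. Of the 5, 4 were positive and 1 was negative, at -0.56. None of these markers was at 0 in any group. Their part in the level of Hspa4l was not tested.

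A measure of base composition made from the counts moved with these values. The longest Hspa4l transcript has 39.5% G and C, and 4.59% of the genes with a mean of at least 5 CPM have less. The mean G and C content of the reads' genes, weighted by counts, was 50.3% and 50.5% in Ob replicates 1 and 2, the highest of the series and the libraries with the least Hspa4l, against 49.0% to 50.2% in the other 10. Over the 12 libraries the log2 CPM of Hspa4l and this measure had r = -0.60 and rho = -0.51, a description, since both come from the same libraries. The part of base composition in the difference was not tested.

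The HSP90 genes did not differ between the groups beyond their spread. Hsp90ab1 was at 1514, 1719 and 1279 CPM in C, at 1473, 1505 and 1322 CPM in Ob and at 1569, 1224 and 1378 CPM in Ob + RSV. Its log2FC was -0.02 ± 0.23 for Ob against C and -0.08 ± 0.23 for Ob + RSV against Ob. Hsp90aa1 was at 510.0, 561 and 761 CPM in C, at 596, 499.6 and 688 CPM in Ob and at 573, 585 and 599.9 CPM in Ob + RSV, with a log2FC of 0.003 ± 0.22 and -0.05 ± 0.22. In C replicate 3 and Ob replicate 3 Hsp90aa1 was high and Hsp90ab1 low. The inducible isoform made up 37.3% and 34.2% of the reads of both there, against 24.6% to 32.4% in the other 10 libraries. By the count-weighted measure above, these 2 libraries had G and C contents of 49.3% and 49.2%, among the 3 lowest. In Ob + RSV replicate 3, the lowest by this measure at 49.0%, the share was 30.3%, within the range of the other 10. By the paper's values for the reads, C replicate 3 and Ob replicate 3 were the lowest of C, Ob and Ob + RSV. The part of base composition was not tested.

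Hspb1, the small heat shock protein HSP25 that holds unfolded proteins and binds actin, was rare. It was at 4.22, 5.63 and 3.02 CPM in C, at 1.70, 3.96 and 3.96 CPM in Ob and at 1.90, 4.18 and 1.82 CPM in Ob + RSV. The groups overlapped. Its log2FC was -0.39 ± 0.52 for Ob against C, and for Ob + RSV it was -0.32 ± 0.53 against Ob and -0.70 ± 0.53 against C. The 95% intervals reached below -1 in each comparison, that for Ob + RSV against C from -1.77 to 0.37. Without the 3 libraries the value was -1.06 for Ob + RSV against Ob and -0.93 against C. Leaving out 1 library gave -0.77 to -0.10 against Ob, the lowest without Ob + RSV replicate 2 and the highest without Ob replicate 2. Against C it gave -1.15 without Ob + RSV replicate 2 to -0.48 without C replicate 2.

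Hsf1, which encodes the factor that drives this set, was at 58.4, 69.4 and 71.4 CPM in C, at 62.4, 76.0 and 76.5 CPM in Ob and at 53.1, 86.4 and 62.2 CPM in Ob + RSV. The Ob + RSV libraries held both extremes of the series. The log2FC was 0.15 ± 0.21 for Ob against C and -0.13 ± 0.21 for Ob + RSV against Ob. Without the 3 libraries it was 0.24 and -0.39. Its mRNA level says nothing of the protein's activity. The members not yet given in Ob + RSV vs. C had log2FC values between those of Hspb1 and Hspa1a there.

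Some members have near-copies elsewhere in the genome on which many reads were counted. In GENCODE vM21, 22.4% of the 150-base stretches of the longest Hspa8 transcript and 36.2% of those of Hsp90aa1 occur unchanged in another gene, as do 36.6% of those of Hspb1. For Hsph1, Dnajb1, Hsp90ab1, Hspa4l and Hsf1 the share was 0%. The 3 genes of the count table that share stretches with Hspa8, the processed pseudogenes Gm15459, Gm8355 and Gm6210, were together counted at 372286 reads over the 12 libraries, against 141316 on Hspa8. Gm15459 alone had 294953 reads. The genes that share stretches with Hsp90aa1, Gm12346, Gm5844 and Gm5511, had 123862 reads against 140884 on Hsp90aa1. Processed pseudogenes are copies of a spliced mRNA set back into the genome. How reads with several alignments were counted is not given in the sources used here.

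Hspa8 itself held 24.0% to 31.7% of the reads counted on it and its near-copies, and Hsp90aa1 49.9% to 60.0%. For Hspa8 the share was 25.4% to 30.1% in C, 24.0% to 26.4% in Ob and 24.8% to 27.2% in Ob + RSV. In the Ob + EAE and Ob + CUR libraries it was 30.1% to 31.7%, above Ob and Ob + RSV and overlapping with C. With near-copies added to the member before the fit, an alternative chosen after the data were seen, the log2FC of Hspa8 was 0.10 ± 0.24 for Ob against C and 0.08 ± 0.24 for Ob + RSV against Ob. For Hsp90aa1 it was -0.04 ± 0.22 and 0.04 ± 0.22, and for Hspb1 -0.32 ± 0.46 and -0.42 ± 0.46. No member was called in this fit either. The order of levels above holds for the counts as deposited, without the reads on near-copies, and for the length of merged exons.

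**Figure D4:**
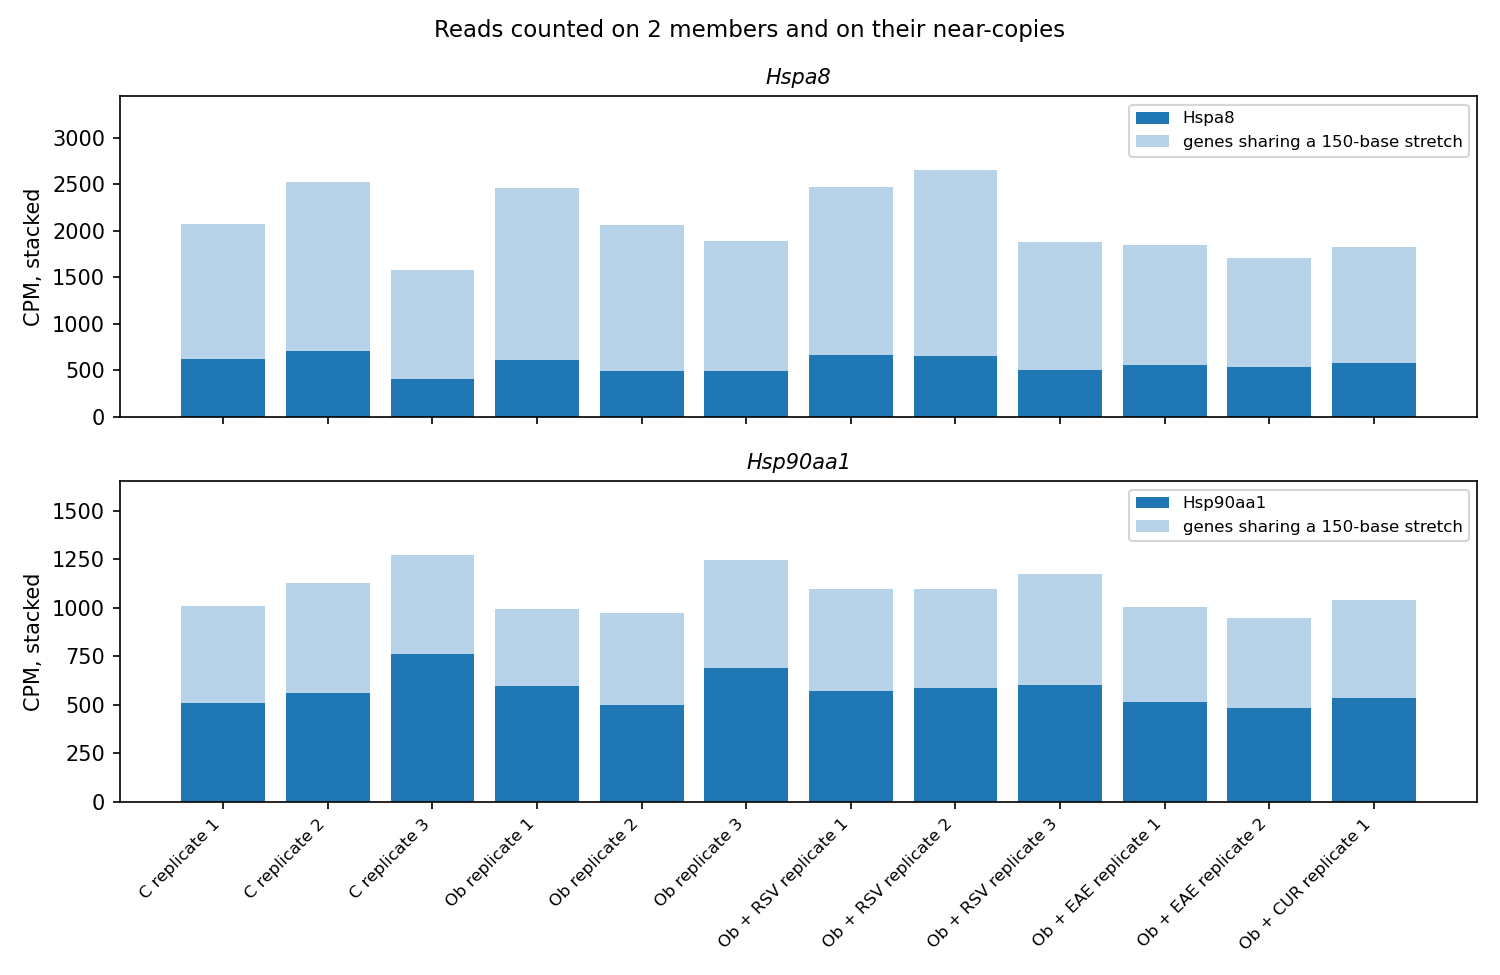
Counts-per-million (y axis, linear from 0) on Hspa8 (upper panel) and Hsp90aa1 (lower panel) in each library (x axis), stacked with those on the genes that share a 150-base stretch with them. Near-copies hold more than Hspa8 itself in all 12 libraries, where Hspa8 has 24.0% to 31.7% of the sum.

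Aged garlic extract was compared with Ob in a fit over all 12 libraries, and 0 of 10 members were called, against 1.84% of 36164 genes. DESeq2 called 0 members and 1269 genes. At an unadjusted p under 0.05, 1 member passed against 13.4% of all genes. For 2 members the groups of 2 and 3 libraries did not overlap, against 38.7% of genes, and the 95% interval lay between -1 and 1 for 7 of 10 members, against 20.7%. Of the genes with a mean of at least 5 CPM, as 9 of the members have, 58.3% did not overlap and 57.3% had such an interval. The count of genes called depended on few libraries, as it was 1 without Ob replicate 1 and the other 2 libraries with the fewest genes.

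Hspa4l was again the member with the smallest p. It was at 197 and 234 CPM in Ob + EAE, above all 3 Ob libraries, and also above all 3 C libraries. The log2FC in Ob + EAE vs. Ob was 0.74 ± 0.23 (95% interval 0.27 to 1.20, unadjusted p = 0.00286, edgeR adjusted p = 0.0803). Leaving out 1 library gave 0.65 to 0.92, with adjusted p from 0.0336 without Ob replicate 3 to 0.869 without Ob + EAE replicate 2. Over all alternatives the adjusted p ran from 0.000438 to 0.869. The count-weighted G and C content of the genes was 49.8% and 50.0% in the 2 Ob + EAE libraries, between those of the Ob libraries at 49.2% to 50.5%. This comparison uses the same Ob libraries as Ob vs. C.

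Hsf1 was at 62.2 and 57.4 CPM in Ob + EAE, below the 3 Ob libraries, with a log2FC of -0.33 ± 0.22 and an adjusted p of 0.584. Hsp90aa1, at 514 and 485 CPM, had a log2FC of -0.32 ± 0.22 and an adjusted p of 0.621, and its libraries overlapped with Ob. The remaining 7 members lay between these values and that of Hspa4l. Hspa1a was at 13.5 and 12.1 CPM, Hspa1b at 13.5 and 12.6 CPM, Hspa8 at 557 and 536 CPM, Dnajb1 at 58.9 and 53.4 CPM, Hsph1 at 282 and 272 CPM, Hsp90ab1 at 1451 and 1379 CPM and Hspb1 at 3.31 and 3.76 CPM. The 2 libraries lay close to each other for all of these.

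Markers of other cells moved in the same comparison. The summed level of 5 endothelial markers was 198 and 201 CPM in Ob + EAE and 42.7 to 107 CPM in Ob, and all 5 had a positive log2FC, 4 of them called. For 5 mural and smooth muscle markers the sums were 140.1 and 142 CPM against 71.6 to 78.4 CPM. Of these, 4 had a positive log2FC and 1 a negative one, at -0.76, with 0 called. The 9 hypothalamic markers summed to 967 and 1155 CPM against 1379 to 2970 CPM. Here 8 had a negative log2FC and 1 a positive one, at 0.65, with 1 called. None of these markers was at 0 in either group. Their part in the level of Hspa4l was not tested.

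The curcumin library was 1 sample and was not tested. Its Hspa1a level was 13.0 CPM, that of Hspa1b 13.3, Hspa8 578, Hsph1 281, Hsp90aa1 536, Hsp90ab1 1513 and Hsf1 58.6 CPM, each inside the range of the C libraries. Dnajb1, at 47.6 CPM, was lower than in any other library. Hspb1, at 5.24 CPM, ranked 2 of 12, and Hspa4l, at 191 CPM, was above the C libraries and ranked 4 of 12. This library had the least signal of hypothalamic markers, as given above.

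The genes around the 10 members were read from lists of chaperones and regulators. The 16 co-chaperones and small heat shock proteins that HSF1 drives had 0 called in Ob vs. C, with a median log2FC of 0.15, and 0 in Ob + RSV vs. Ob, with a median of -0.15. The smallest p values in Ob vs. C were those of Hspb8, a small heat shock protein that works with Bag3 in selective autophagy, at 0.42 ± 0.27, and Ahsa1, which stimulates the ATPase of HSP90, at 0.33 ± 0.21. In Ob + RSV vs. Ob they were those of Bag3, at -0.52 ± 0.33, and the ubiquitin gene Ubb, at -0.32 ± 0.25. The 15 co-chaperones and regulators of HSP70 and HSP90 had 0 called in both, with medians of 0.18 and -0.14. Among them Stub1, the ubiquitin ligase CHIP that marks chaperone clients for degradation, had 0.40 ± 0.22 for Ob against C and -0.52 ± 0.22 for Ob + RSV against Ob (unadjusted p = 0.0268, adjusted p = 1). These comparisons share the Ob libraries, so opposite signs in them are not 2 separate observations.

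Of 10 other cytosolic HSP70 and DNAJ genes 0 were called for Ob against C or for Ob + RSV against Ob. Hspa12a, a distant HSP70 relative of the brain, was at 135, 135 and 97.1 CPM in C and at 66.3, 75.6 and 83.0 CPM in Ob, with no overlap. Its log2FC was -0.67 ± 0.22 (unadjusted p = 0.00463, adjusted p = 1). In Ob + EAE, at 131 and 143 CPM, it had 0.81 ± 0.22 against Ob (adjusted p = 0.0498), short of a log2FC of 1. The direction of Hspa12a in both comparisons was that of Hspa4l. Of the 4 genes of HSF factors and HSF1 regulators 0 were called, and Hsf4 had 0.41 ± 0.22 for Ob against C and -0.29 ± 0.21 for Ob + RSV against Ob.

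Chaperones of other compartments did not pass the test either. The 12 chaperones of the endoplasmic reticulum had 0 called for Ob against C and for Ob + RSV against Ob, with medians of -0.002 and -0.06 and all 12 intervals between -1 and 1. The 7 mitochondrial chaperones and proteases had 0 called, with medians of 0.06 and -0.23, and Clpp, a protease subunit of the mitochondrial matrix, had 0.48 ± 0.24 in Ob vs. C. The 13 immediate-early genes, which rise within minutes of neuronal firing or handling, had 0 called and medians of 0.27 and -0.14. Junb had 0.74 ± 0.35 in Ob vs. C (adjusted p = 1). In Ob + RSV vs. C 0 genes of these 7 lists were called.

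With aged garlic extract 1 gene in each of 2 lists, of 16 and 15 genes, was called, against 1.84% of all genes tested. Both were lower than in Ob. Under the alternatives the count over all genes ran from 1 to 1417, and these 2 calls were not followed through them. Ptges3, the HSP90 co-chaperone p23, was at 56.5 and 47.6 CPM in Ob + EAE against 158, 96.0 and 138.9 CPM in Ob, with a log2FC of -1.40 ± 0.26 (adjusted p = 0.00569). Hspb8 was at 13.4 and 10.7 CPM against 23.1, 24.8 and 23.7 CPM, with -1.06 ± 0.29 (adjusted p = 0.0489). The medians of the HSF1 target list and of the co-chaperone list were -0.57 and -0.44, beside 0.05 over all genes tested and -0.02 over genes with a mean of at least 5 CPM, and the median of the 10 members was -0.06. The HSF family list, at -0.60, and the immediate-early genes, at -0.78 with 12 of 13 negative, were as low or lower, with 0 called in each. Dnajb6, a DNAJ protein that keeps polyglutamine proteins soluble, had -0.95 ± 0.24 (adjusted p = 0.0277), short of a log2FC of 1.

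Across the 12 libraries the members did not move as 1 set. The 45 pairs of members had a median r of 0.04 of log2 CPM, from -0.68 between Hsf1 and Hspa1b to 0.78 between Hsp90ab1 and Hspa1b. Above 0.5 were 7 pairs and below 0 were 21. Dnajb1 and Hspa8 had r = 0.72 (rho = 0.68), and 3.16% of the genes with a mean of at least 5 CPM had a higher r with Dnajb1. Hspa1a and Hspa8 had r = 0.70 (rho = 0.71), with 1.69% of genes higher with Hspa1a. Without the 3 libraries with the fewest genes the median r was 0.01, and 14 pairs were above 0.5. Values of Hspa1b depend on these libraries, which include Ob + RSV replicate 2 with its uneven split of Hspa1a and Hspa1b. For Hspa1a and Hspa1b r was -0.01 over 12 libraries and 0.89 without the 3. For Hspa1b without the 3 it was -0.47 with Hsf1 and 0.84 with Hsp90ab1. These libraries share a tissue, and their depth and base composition differ from one to the next. Hspa1a, Hspa8, Dnajb1 and Hsp90ab1 each had r between 0.58 and 0.67 with the count-weighted G and C content of the genes. That measure is made from the same counts and is not the base composition of the reads.

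**Figure D5:**
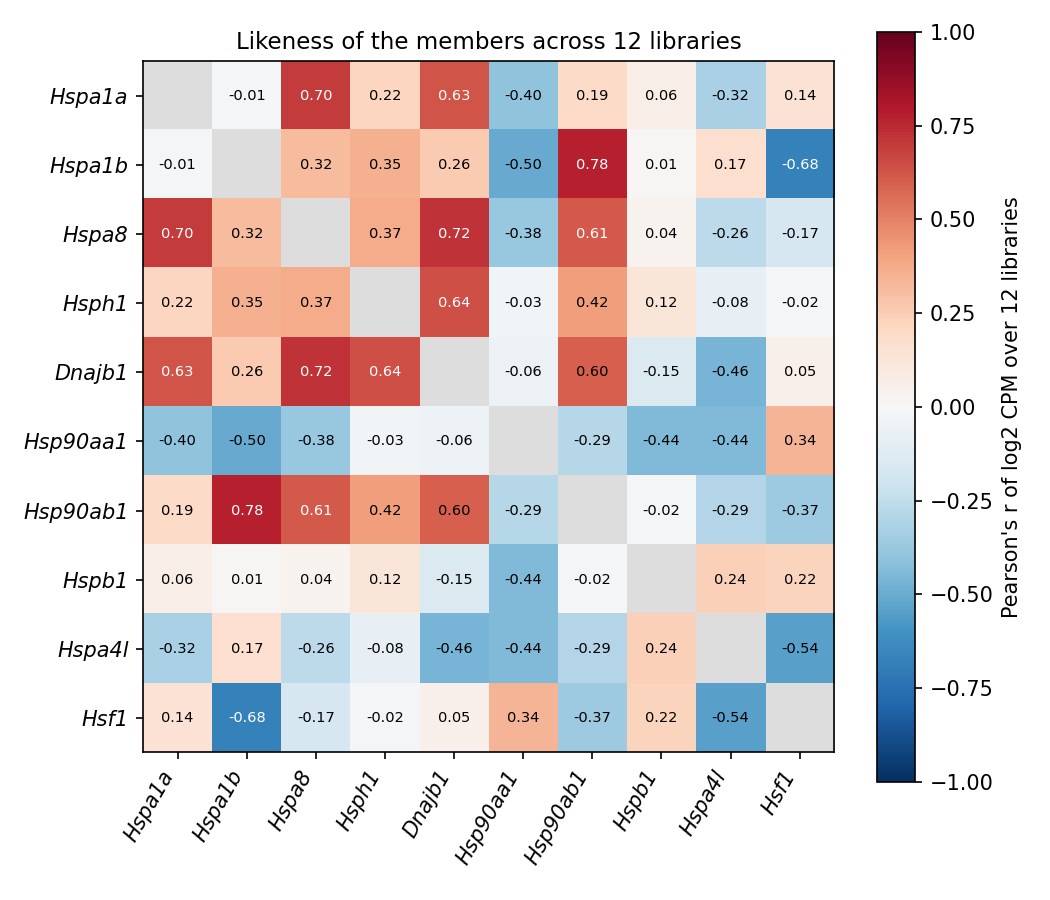
Pearson's r of log2 CPM between the 10 members over the 12 libraries, on a colour scale from -1 to 1 with the value in each cell. Dnajb1, Hspa8, Hspa1a and Hsp90ab1 form most of the pairs above 0.5, and Hsp90aa1 and Hspa4l are mostly below 0 with the others.

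Likeness to other genes was computed for Hspa1a and Hspa1b summed, for Hsph1 and for Hspb1. Among 13034 genes that are no members, the 5 with the highest r with the sum of Hspa1a and Hspa1b were Zbtb7b, Letm1, Zfand3, Taok2 and Ubxn6, at r = 0.91 to 0.94 over 12 libraries. For Hsph1 they were Rdh11, Hdac8, Cdc42se1, Mrpl35 and Mief1, at 0.84 to 0.92. For Hspb1 they were 5330417C22Rik, Cand2, Flii, Stx5a and Plxnb2, at 0.87 to 0.91. None of these 15 genes is in a chaperone list used here. The names depended on the libraries: without the 3 libraries with the fewest genes the first was Schip1 for the sum and Psmd6 for Hsph1, and none of the genes named above for these was among the 5. Cct4, a subunit of the cytosolic chaperonin, was then among those of Hsph1. With 12 libraries and this many genes such values are a description of these libraries.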

How the data were processed

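Poly(A) RNA of whole mouse hypothalamus was sequenced in 12 libraries. Per the labels, stranded TruSeq libraries were read in pairs of 150 bases. Per the study's methods, reads were aligned with HISAT2 and counted with featureCounts. The submitters' processing notes name FastQC, featureCounts and GRCm39. The sources used here name no annotation release, no strand setting and no treatment of multi-mapped reads. The deposited values are raw counts of reads per gene, made by the authors, with library totals of 15655156 to 26284661. Genes were named from a table of gene IDs and symbols, which matched 51486 of 78334 IDs.

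Groups follow the labels. The 10 members and all gene lists were chosen with earlier results of these data known. Genes with at least 10 reads in total were tested with edgeR 4.0.16 (R 4.3.3), with TMM scaling, the quasi-likelihood test and Benjamini-Hochberg adjustment over all genes. C, Ob and Ob + RSV shared 1 fit of 9 libraries, and Ob + EAE vs. Ob was fitted on 12. An interval is the log2FC ± the t quantile times its SE. DESeq2 1.42.0, scaling, filters, the sets of libraries, leaving out each library, the replicate number as a block and summed counts of Hspa1a and Hspa1b were alternatives. Summed near-copies and a paired fit of Ob and Ob + RSV alone were added after the data were seen. No label pairs libraries of different groups. Deviations from the group means of same-numbered Ob and Ob + RSV libraries had r = 0.56, 0.11 and 0.62, and the number was taken to pair them. It was not taken to pair either group with C (r from -0.06 to 0.36). The fits were tested on simulated data. CPM are counts-per-million values on the library total. For correlations log2 CPM were TMM-scaled with a prior count of 2. Exon lengths, transcripts and gene types came from GENCODE vM21 and promoters from RefSeq (GRCm38.p6), which is another build than that of the files, so no coordinate was joined to the counts. Named genes were all members, the called genes of each list or up to 2 with the smallest p, and the 5 genes most like Hspa1a and Hspa1b summed, Hsph1 and Hspb1. Precision at low levels is limited by counting: Hspb1 had 873 reads in all.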

Additional observations from a re-analysis of the deposited data

Results flagged for a closer look

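Hspa4l in the Ob + CUR library, a sample that entered no comparison, was at 191.42 CPM, above the highest C library at 182 CPM. With 1 library in the group this was not tested.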

How the results depend on the processing

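The count of members called stayed at 0 in 94 of 96 alternatives. The 2 others called by an unadjusted p under 0.05 alone and gave 1 in Ob vs. C and 1 in Ob + EAE vs. Ob, Hspa4l in each. With an unadjusted p alone 922 of all genes passed for Ob against C, 1059 and 962 for Ob + RSV against Ob and C, 928 for any difference and 4829 for Ob + EAE against Ob. Under the alternatives that keep the reported thresholds, the count over all genes was at most 50 when Ob was set against C, 34 for Ob + RSV against Ob, 35 for Ob + RSV against C and 104 for any difference, with 0 as reported. For Ob + EAE against Ob, where 665 were reported, it ran from 1 without the 3 libraries with the fewest genes to 1417 with the replicate block, and was 77 with filterByExpr, 1031 with a minimum of 1 read, 1269 in DESeq2, 18 without Ob replicate 1, 1172 without Ob replicate 3, 228 without Ob + EAE replicate 1 and 19 without Ob + EAE replicate 2. Of 427 alternatives of the 25 log2FC values given singly, 397 kept the direction. The 30 that did not belong to 10 values, the largest of them 0.39 in size. Without C replicate 2, Ob replicate 1 and Ob + RSV replicate 2 the Ob vs. C log2FC was -0.063 for Hspa1a, 0.048 for Hsph1, -0.10 for Hsp90aa1, 0.024 for Hsp90ab1 and 0.13 for Hspb1, and the Ob + RSV vs. Ob log2FC was 0.26 for Hspa1b, 0.013 for Hsp90aa1 and 0.082 for Hsp90ab1. With near-copies summed the Ob vs. C log2FC was 0.10 for Hspa8 and -0.043 for Hsp90aa1, and that of Hsp90aa1 in Ob + RSV vs. Ob was 0.037. Leaving out 1 library gave, in Ob vs. C, -0.56 to 0.19 for Hspa1b, -0.28 to 0.089 for Hspa8, -0.092 to 0.18 for Hsp90aa1, -0.14 to 0.069 for Hsp90ab1, -0.14 to 0.21 for Hspa1a and -0.11 to 0.023 for Hsph1. In Ob + RSV vs. Ob it gave -0.46 to 0.28 for Hspa1b, -0.15 to 0.021 for Hsp90aa1 and -0.20 to 0.032 for Hsp90ab1. Apart from the fits on fewer samples, the cause was not tested.

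The median r over the 45 pairs of members was 0.015 without the 3 libraries, 0.092 on library totals and 0.082 for deviations from group means.

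The replicate number was taken to pair Ob with Ob + RSV and not either group with C, by correlations in these counts and by no label. Paired on those groups alone, 34 genes and 0 members were called. With the replicate number as a block over all libraries 0 members were called, and the log2FC of Hspa4l was -0.49 in Ob vs. C and 0.86 in Ob + EAE vs. Ob, where 1417 genes were called.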
